A study of Saccharomyces cerevisiae with 24 samples.

Results

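The 831 A and C of 18S ribosomal RNA of Saccharomyces cerevisiae were compared between early pre-40S particles and mature ribosomes, both treated with dimethyl sulfate (DMS). They were taken by position and depth alone: the A and C of the 18S part of the RDN37 transcript, encoded in the rDNA on chromosome XII, with an effective depth of at least 50 reads in each of the 6 libraries compared. All 831 of the 831 A and C of 18S qualified (483 A and 348 C), out of 3131 A and C in the whole transcript. The pre-40S group (WT pre-40S, n = 3) was purified through a TAP tag on Utp9 from cells with wild-type Rrp5 together with H375A. The sources used here do not name the protein with H375A. The mature group (BY4741, n = 3) held ribosomes of the laboratory strain BY4741. All cells grew in YPD to mid-log phase, and DMS was given to the purified particles at 1% for 5 min at 30 °C. Every library, treated or not, is listed with 800 mM HEPES, 500 mM NaCl, 50 mM MgOAc and 0.2 µM RNaseP. Each group has 3 untreated libraries made alongside. The series holds 24 libraries in 8 groups of 3, described as biological replicates. Pre-40S with the Rrp5_mL form, also together with H375A (mL), and mature ribosomes of BY4741 lacking snr31 and snr54 served here as a separate pair of groups. The particles came from 2 separate experiments, so particle type, strain, the purification through Utp9, H375A and sequencing run change together and cannot be told apart.

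DMS adds a methyl group to the pairing face of A and C bases that are neither paired nor shielded by protein, and reverse transcription turns that group into a mutation in the read. The mutation rate at a base, in percent of the reads that cover it, is the measurement here. Utp9 belongs to the UTP-A complex, which binds the 5′ external transcribed spacer (5′ ETS) first in the assembly of the small subunit processome. In that early particle the U3 small nucleolar RNA pairs with the 5′ end of 18S and with a distant stretch at the end of the central domain. Parts of those 18S stretches later pair with each other as the central pseudoknot, which joins the domains of the mature subunit. The domains of 18S fold and dock as the processome is dismantled, and the decoding centre at the top of helix 44 is completed last, in the cytoplasm.

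The main changes can be followed in these stretches of 18S. The first and the second lie in the stretches with the U3 pairing sites, from the first to the last called site in each. The others were chosen after their values were seen, because rises and falls lie side by side in them; they are the called sites at most 8 nt apart around A1227, A812 and C258. Each is printed 5′ to 3′ from the base column of the deposited files, with the called sites in capitals (adjusted p under 0.05, in either direction) and positions counted from the first base of 18S.
5′ end, 11 to 25: AuccugCCaguaguC
End of the central domain, 1113 to 1143: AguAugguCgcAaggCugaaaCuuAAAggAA
3′ major domain, 1204 to 1236: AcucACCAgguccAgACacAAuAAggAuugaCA
Central domain, 804 to 814: AuaauAgAAuA
5′ domain, 215 to 266: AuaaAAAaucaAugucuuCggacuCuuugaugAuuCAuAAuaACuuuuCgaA

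The libraries carried the marks of their labels. In the treated WT pre-40S libraries the depth over the 5′ ETS was 1.67 ± 0.337 times that over 18S (SD, n = 3), and in treated BY4741 it was 0.000414 ± 0.000174 times. U1191, which carries the hypermodified base m1acp3-pseudouridine in mature 18S, was read as mutated in 31.8%, 13.3% and 13.7% of reads in the 3 pre-40S libraries and in 82.4% ± 1.36 in BY4741 (exact permutation test, two-sided p = 0.1, the smallest that 3 against 3 allow). Part of the 18S in the pre-40S libraries thus gave this mutation, and 25S was read at 0.692 ± 0.04995 times the 18S depth there, against 2.33 ± 0.175 times in BY4741. The part of such RNA in the results was not tested. Depth differed: the median over 18S was 373 ± 97.8 reads in pre-40S and 23960 ± 3140 in BY4741 (SD over 3 libraries), so the pre-40S libraries set the precision. Untreated replicate 2 of WT pre-40S stood apart, with a mean 5′ ETS depth of 0.0357 times that of 18S where its 2 partners had 0.856 and 1.12. It had 206856 mutations at A and C of 18S and its partners 586 and 2561. Its median depth was 610 reads over RDN37 and 721.5 over 18S, so the low ratio is one of means. The cause was not tested. Among the untreated BY4741 libraries, replicate 2 had 119978 mutations at A and C of 18S and its partners 22199 and 16034. Both replicates 2 enter the test for a DMS response and the fit that adds the untreated libraries (particle by DMS interaction), and no other fit.

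Treated pre-40S libraries had higher rates at most bases. The median over the 483 A was 1.47%, 1.87% and 2.12% in the pre-40S libraries and 0.404%, 0.447% and 0.554% in BY4741. The groups do not overlap. At the top of the range the order differed by statistic. The 99th percentile of A was 13.2% ± 1.60 in pre-40S and 13.0% ± 1.55 in BY4741, and that of C was 5.98% ± 0.178 and 4.35% ± 0.850. The highest A stood at 17.1%, 20.1% and 24.6% in pre-40S and at 64.1%, 52.1% and 68.5% in BY4741, and the highest C at 10.2%, 13.5% and 19.2% against 32.5%, 29.7% and 33.1%. Since DMS dose can differ between tubes, counts were tested with a factor per library that sets the typical tested site of RDN37 equal, and a change is relative to that site. With this factor the median log2 change (pre-40S over mature) over all 2145 tested sites of RDN37 was -0.16, and over the 18S sites 0.32. Of the 831 sites, 742 were tested (476 A and 266 C). Another 7 had under 30 mutations and 82 had no DMS response, defined as a treated mean of at least 2 times the untreated mean in at least 1 particle type.

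18S was changed over its whole length. Of 742 tested sites, 166 were higher in pre-40S (116 A and 50 C) and 122 were lower (87 A and 35 C) by edgeR's quasi-likelihood test at a Benjamini-Hochberg adjusted p under 0.05. Over all tested sites of RDN37, 10.7% were called higher and 18.6% lower, 29.3% in all. Within 18S the called share was 38.8%, against 24.03% of the 1315 tested sites of 25S. The higher sites rose from a median of 0.333% in BY4741 to 2.75% in pre-40S before scaling, and the lower sites had medians of 2.57% and 2.10%. All 166 higher sites had unscaled rates above every BY4741 library, but only 41 of the 122 lower sites had unscaled rates below every one. Over all tested sites, called or not, the order above was common as well. Sites were classed by their rate in treated mature libraries of BY4741 lacking snr31 and snr54 (bounds at 0.2%, 0.5%, 1% and 5%). From the lowest class up, 82 of 178, 124 of 178, 134 of 166, 105 of 185 and 5 of 35 were above every BY4741 library. Below every one were 5, 0, 1, 20 and 20. In 67 of the lower sites the unscaled groups overlapped, with a lower pre-40S mean in 40 of them. In 14 the pre-40S rates were above every BY4741 library. The unscaled pre-40S mean was thus below the mature mean in 81 of the 122, and the rest were lower relative to the typical site alone. The direction of the balance depends on the factor. Higher and lower calls numbered 101 and 163 with the factor from 18S alone, 188 and 105 from 25S alone, 437 and 33 without a factor, and 190 and 101 with the factor recentred on the median change, against 166 and 122. Under every one of these factors 101 of the higher and 33 of the lower sites were called in the same direction. The 18S factor set the first number and the fit without a factor the second, so their balance is not a result. In 80 of the 166 and 93 of the 122 the call held whichever of the 6 libraries was left out.

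**Figure D1:**
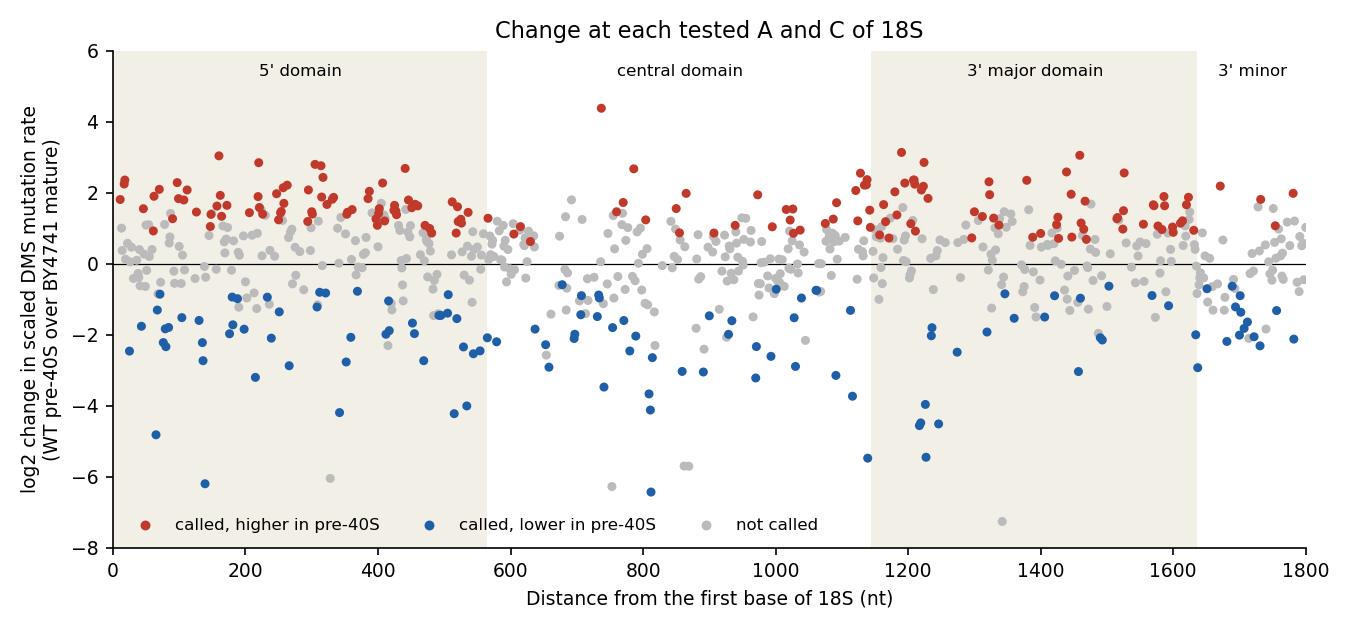
Fitted log2 change in scaled DMS mutation rate (WT pre-40S over BY4741 mature, 3 libraries each) at each of the 742 tested A and C against the distance from the first base of 18S in nucleotides. Red points are the 166 sites called higher and blue points the 122 called lower; shading marks the domains. Values below -4 include sites with 3 or fewer pre-40S mutations, whose fitted size is not a bound.

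The stretch at the end of the central domain holds the U3 box A′ pairing site and a strand of the later pseudoknot, which its bounds do not separate. It held 17 tested sites, of which 8 were higher and 3 lower (47.1% and 17.6%, against 22.4% and 16.4% over all tested 18S). Under every factor 5 higher and 2 lower calls held. In the separate pair with mL pre-40S, 5 and 2 of 17 were called, with a median log2 change of 0.22 against 0.74 here. The most DMS-reactive base of the stretch in mature ribosomes was A1139, mutated in 64.1%, 52.1% and 68.5% of reads in BY4741. In pre-40S the same base gave 3.21%, 4.37% and 4.24%. The groups lie far apart, and the pre-40S mean was 6.404% of the mature mean. The log2 change in scaled rate was -5.47 ± 0.20 (SE, adjusted p = 9.06e-14). A1116 also fell, from 11.9% ± 0.730 to 2.78% ± 1.68 (log2 change -3.73, adjusted p = 1.79e-09). Around these bases the reverse was seen. A1138, next to A1139, was mutated in 4.95%, 2.27% and 4.61% of pre-40S reads and 0.243%, 0.257% and 0.350% of BY4741 reads (log2 change 2.37 ± 0.33, adjusted p = 9.77e-06). Without DMS its pre-40S rates were 0%, 3.94% and 1.57%, so the base was also mutated without DMS in 2 of the 3 untreated libraries. With the untreated libraries in the fit its sign turned (particle by DMS interaction, log2 change -2.38, adjusted p = 0.0493). In that fit the treated libraries kept their factors, which lower pre-40S rates relative to BY4741, and the untreated libraries had none. The part of this scaling in the turned signs was not tested. Chosen after their values were seen, C1128 rose from 0.0950% to 1.54% (log2 change 2.55, adjusted p = 0.00107) and A1137 from 0.161% to 1.98% (log2 change 2.22, adjusted p = 0.000395). The remaining higher sites of this stretch were C1121, A1124, C1134, A1142 and A1143, and the remaining lower site was A1113, whose unscaled rates overlap between the groups.

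At the 5′ end of 18S, where U3 box A pairs, 8 sites were tested and 3 were higher (37.5%, against 22.4% over all tested 18S). Named after their values were seen, these were A11 at 2.64%, 1.78% and 1.02% in pre-40S against 0.162%, 0.166% and 0.257% in BY4741, and C17 and C18 with log2 changes of 2.25 and 2.36. The 3 sites were above all mature libraries without scaling, yet each rests on 16 or fewer pre-40S mutations, and none held its call with every library left out in turn. C25 was the only lower site (1.94% ± 0.812 against 3.48% ± 0.111; log2 change -2.46, adjusted p = 1.54e-06).

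In the 3′ major domain, the stretch 1204 to 1236 held rises and falls side by side, which was the reason for its choice. Of its 19 tested sites 9 were higher and 6 lower, where all tested 18S had 22.4% and 16.4%. It held 4 of the 15 largest falls and 3 of the 15 largest rises in 18S. Its bounds were set by called sites, so these counts follow in part from the choice. A1227 was mutated in 7.09%, 7.22% and 8.58% of reads in BY4741 and in 0.229%, 0.578% and 0.830% in pre-40S, with no overlap (log2 change -5.45 ± 0.28, adjusted p = 5.84e-12). A1226 beside it fell from 6.08% ± 0.610 to 1.11% ± 0.951 (log2 change -3.96), although its untreated pre-40S rates of 0.901%, 3.75% and 0.865% overlapped the treated ones. A1224, between these and the 5′ flank, moved the other way. It gave 5.29%, 5.06% and 7.99% in pre-40S and 0.295%, 0.237% and 0.348% in BY4741 (log2 change 2.85 ± 0.22, adjusted p = 2.00e-09). A1219 fell from 5.87% ± 0.604 to 0.787% ± 0.345 and C1246, downstream of the stretch, from 16.6% ± 2.62 to 1.99% ± 0.336 (log2 changes -4.48 and -4.51). A1217 had 3 mutations in 1620 pre-40S reads, which puts the unscaled mature rate at 8.77 times the pre-40S rate (95% exact binomial interval 2.99 to 42.6, for counting error only). A1208 and C1209, on the 5′ side of the stretch, both rose by 2.36 on the log2 scale, and A1204, C1210, A1211, C1220, A1223 and A1230 were the other higher sites. C1235 and A1236 were lower with overlapping unscaled rates.

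**Figure D2:**
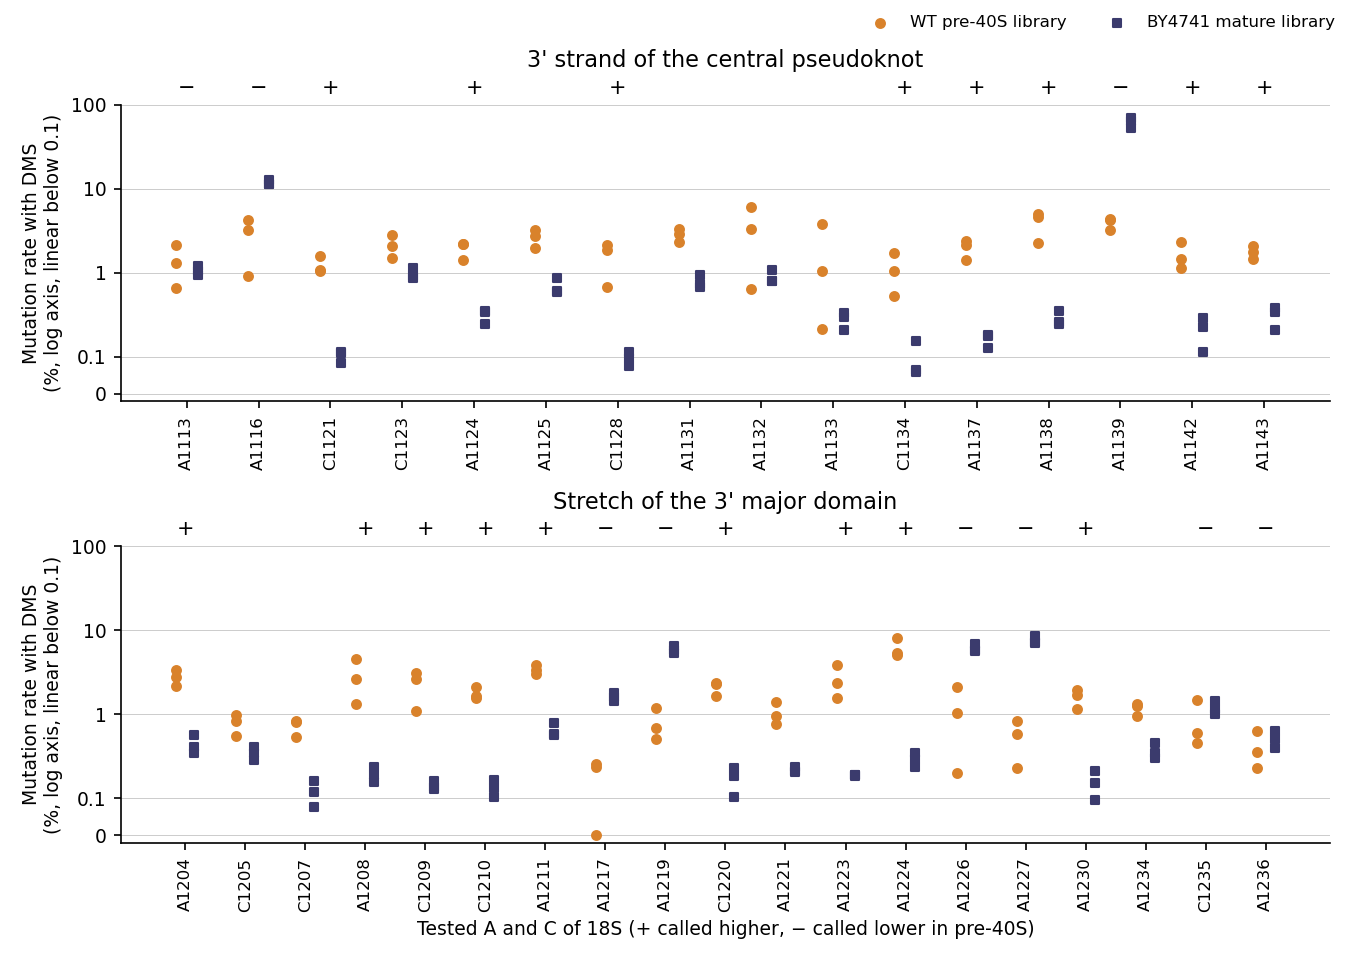
DMS mutation rate in percent, unscaled, on a log axis that is linear below 0.1, for each tested A and C of 18S 1113 to 1143 (top) and 1204 to 1236 (bottom). Each orange circle is 1 of 3 WT pre-40S libraries and each dark square 1 of 3 BY4741 libraries; plus and minus signs mark sites called higher or lower in pre-40S. A1139 stands between 52.1% and 68.5% in mature libraries and at most 4.37% in pre-40S, with higher-in-precursor sites on both sides of it.

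The largest single fall that rests on more than 3 pre-40S mutations was C139 in the 5′ domain. It was mutated in 32.5%, 29.7% and 33.1% of BY4741 reads and in 1.36%, 1.40% and 0.588% of pre-40S reads, 3.52% of the mature mean (log2 change -6.20 ± 0.28, adjusted p = 7.58e-13). C139 had the highest rate of any C of 18S in each BY4741 library, and in pre-40S the median over all C was 0.559% ± 0.0175. A515 fell from 16.4% ± 2.35 to 2.46% ± 0.182 and A534 from 8.92% ± 1.15 to 1.65% ± 0.535 (log2 changes -4.22 and -4.00). The groups do not overlap at these 3 sites. In the interaction A515 had the opposite sign (2.32, adjusted p = 0.792), with no mutation in its 3 untreated pre-40S libraries.

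Several falls rest on few precursor reads. In the central domain A812 had 1 mutation in 878 pre-40S reads and 2719 in 75880 mature reads, a mature rate 31.5 times as high (95% interval 5.64 to 1243), and A811 had 1 in 859 (6.42 times, 1.15 to 254). A809 close by fell from 3.35% ± 0.651 to 0.718% ± 0.289 (log2 change -3.67, adjusted p = 1.28e-07). A65 had 3 in 1177 (10.1 times, 3.44 to 48.8), but its untreated pre-40S libraries gave 0.952%, 5.48% and 0.914%. C342 had 2 in 945 (6.54 times, 1.81 to 54.1), and without DMS its mature rates of 1.75%, 1.54% and 1.26% overlapped the treated 1.39%, 1.44% and 1.31%.

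The largest rises were spread over the domains. C1190 was mutated in 1.61%, 2.71% and 1.79% of pre-40S reads and in 0.0848%, 0.0960% and 0.0656% of BY4741 reads (log2 change 3.14 ± 0.56, adjusted p = 0.000165). It is the neighbour of U1191, which was mutated in most mature reads, and the part of that mark in the rate of C1190 was not tested. C1459 in the 3′ major domain gave 3.25%, 2.40% and 3.93% against 0.0704%, 0.174% and 0.158% (log2 change 3.06 ± 0.37, adjusted p = 1.95e-06). C1439 and A1526 of the same domain rose by 2.59 and 2.56. No overlap between the groups at these sites, after scaling, was a condition of their choice.

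In the 5′ domain C160 was mutated in 3.15%, 2.93% and 3.04% of pre-40S reads and in 0.0975%, 0.217% and 0.103% of BY4741 reads (log2 change 3.04 ± 0.45, adjusted p = 2.01e-05). A220 rose by 2.85, C305 by 2.80, C314 by 2.76 and C317 by 2.43. They are no unbroken patch: between C305 and C314 lie C308 and A312, called lower (log2 changes -1.22 and -0.80) and named after their values were seen, and C309 and C310, which did not pass the test. C786 in expansion segment ES6 of the central domain rose from 0.356% ± 0.0808 to 6.23% ± 1.27 (log2 change 2.67, adjusted p = 1.61e-06). A737 had the largest fitted rise, 4.38, at 13.7%, 5.53% and 7.14% against 0.148%, 0.151% and 0.166%. Its untreated pre-40S rates were 2.70%, 19.97% and 6.46%, the highest of them in replicate 2, which stood apart, and the treated and untreated ranges overlap. All 15 of the largest rises and all 15 of the largest falls kept call and direction under every factor and every left-out library, but not in the particle by DMS interaction. There 2 of the 15 rises (C160 and C1439) and 8 of the 15 falls (C139, A1227, A65, C1246, A1219, A1226, A1116 and A809) kept call and direction. A737 and A1138 turned to called lower (-3.02 and -2.38, adjusted p = 0.0123 and 0.0493), and C305, A515 and A811 turned sign without passing the test. A1139 kept its sign there (-3.73, adjusted p = 0.294).

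**Figure D3:**
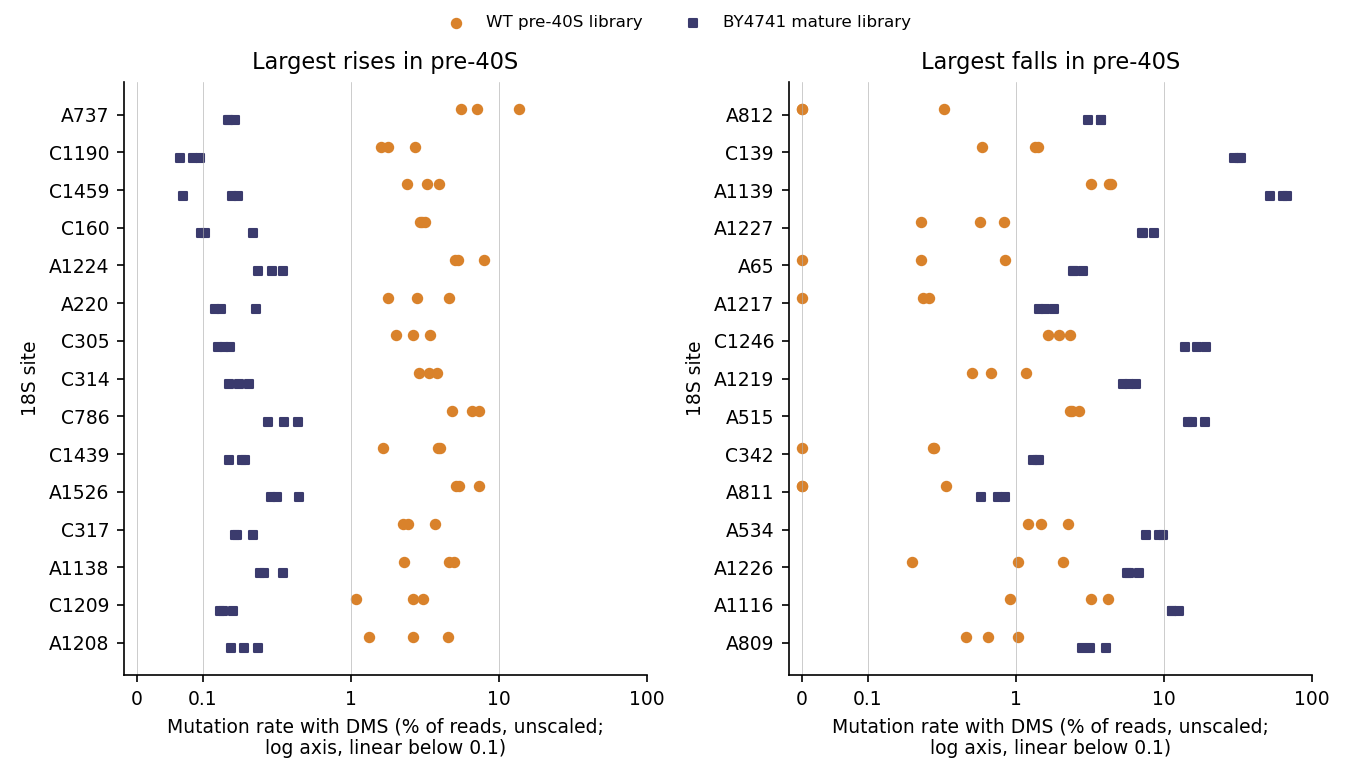
Unscaled DMS mutation rate in percent of reads, on a log axis that is linear below 0.1, at the 15 largest rises (left) and the 15 largest falls (right). Each orange circle is 1 of 3 WT pre-40S libraries and each dark square 1 of 3 BY4741 libraries. Sites were chosen among those whose groups do not overlap after scaling; 9 of the 15 rises are C while 12 of the 15 falls are A.

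Runs of neighbouring sites changed in the same direction in places. A run was counted where 3 or more consecutive tested sites, at most 20 nt apart, changed by at least 1 log2 unit in 1 direction and 2 or more were called; there were 16 higher runs (68 sites, 49 called) and 9 lower ones (39 sites, 27 called). The run with the most sites was 401 to 411, which follows another at 385 to 399. It had 8 sites with log2 changes of 1.21 to 2.27, and 4 of them were called: A401, C402, A407 and A410. A407 was mutated in 1.54%, 2.78% and 1.16% of pre-40S reads against 0.120%, 0.114% and 0.179%. Its other 4 sites, C405, C408, C409 and C411, each had 9 or fewer pre-40S mutations and did not pass the test. In 385 to 399, 4 of 5 sites were called. A387 was the strongest of them, rising from 0.549% ± 0.216 to 6.43% ± 1.54 (log2 change 2.04, adjusted p = 1.12e-06), beside A385, A397 and A399; A391 had a log2 change of 1.43 and adjusted p = 0.122. In 253 to 263, 5 of 6 sites were called (A253, A254, A257, C258 and C263), with C263 highest at 3.18%, 4.18% and 3.04% against 0.243%, 0.221% and 0.369%, and A256 missed the threshold at adjusted p = 0.0504.

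Directly 3′ of the higher run with the most sites, 412 to 421 was the lower run with the second highest number of sites, and 3 of its 6 were called. A412 was mutated in 2.63%, 3.93% and 6.67% of pre-40S reads and in 5.19%, 5.36% and 6.73% of BY4741 reads. The unscaled groups overlap, and the log2 change of -1.98 (adjusted p = 2.15e-07) is relative to the typical site. The same holds for A417, while A416 had unscaled pre-40S rates that were higher on average (2.27% ± 1.03 against 1.53% ± 0.278), so its log2 change of -1.05 became 0.44 without a factor. C415, A420 and A421 did not pass. The lower run with the most sites was 807 to 818, where A809, A811, A812 and A814 were called and A807, A817 and C818 were not. In the run that starts at C637 the called sites were C637, C653 and C658, with no unscaled rate below all mature libraries, and C654 and A661 did not pass. Among 685 pairs of neighbouring tested sites at most 5 nt apart, both were higher in 55, both lower in 28, and in 37 they changed in opposite directions. Of all tested 18S sites 22.4% were higher and 16.4% lower. How many such pairs or runs unrelated sites would give was not tested.

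By domain and with the main factor, rises led in the 5′ and 3′ major domains. In the 5′ domain 73 of 255 tested sites were higher and 48 lower, with a median log2 change of 0.47. In the 3′ major domain 57 of 192 were higher and 22 lower, with a median of 0.58. In the central domain 32 of 231 were higher and 39 lower (median 0.10). The 3′ minor domain counted 4 higher and 13 lower of 64 (median -0.32). Over all tested 18S the median was 0.32. With the calls that held under every factor, the counts were 50 against 14, 34 against 7, 15 against 10 and 2 against 2. These cannot show a lead of rises. The fit without a factor kept all 166 higher calls and only 33 of the 122 lower ones, while the 18S factor kept 101 and 122.

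Counts for functional sites within the domains are read beside the shares over all tested 18S sites, 22.4% higher and 16.4% lower. Expansion segment ES6, a eukaryotic insertion on the surface of the subunit, had 5 higher and 17 lower of 64 tested sites (median -0.60). Of these calls, 4 higher and 5 lower held under every factor. The decoding centre and the base of helix 44, where mRNA and tRNA are read, had 1 higher and 4 lower of 32. A1755 gave 5.70%, 4.69% and 4.202% against 1.61%, 1.45% and 1.68% (log2 change 0.16, adjusted p = 0.692). Its sign turned with the factor from 18S (-0.24), without WT pre-40S replicate 1 (-0.15) and in the interaction, where it passed the test as lower (-3.92, adjusted p = 0.00407). Its untreated pre-40S rates were 0%, 6.30% and 1.46%. A1756 gave 1.21%, 1.94% and 2.41% against 1.28%, 1.55% and 1.97%; it was called lower relative to the typical site (log2 change -1.32, adjusted p = 0.000934), with a log2 change of 0.16 without a factor. The 530 loop had 1 higher and 3 lower of 22, and the loop of helix 31, which holds U1191, had 2 higher and 0 lower of 8, with 0 lower also by DESeq2, by limma and at an unadjusted p under 0.05. With 8 sites against a share of 16.4%, nothing particular to the loop is read from the 0. The snR30 pairing region had 3 and 1 of 14, the U14 pairing region 1 and 1 of 7, helix 23 loop 1 and 2 of 12, helix 24 loop 5 and 4 of 25, helix 34 4 and 1 of 15, and helix 45 with the 3′ end 1 and 1 of 12. Sites within 20 nt of A974 counted 1 and 3 of 17, and those within 20 nt of U999 2 and 2 of 18.

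A1781 and A1782 are dimethylated on the base by Dim1 late in 18S maturation, and they were called in opposite directions. A1781 was mutated in 2.10%, 3.72% and 3.44% of pre-40S reads and 0.321%, 0.3002% and 0.201% of BY4741 reads (log2 change 1.98 ± 0.33, adjusted p = 8.70e-05). Without DMS it was at 0.162% ± 0.280 in pre-40S and 0.298% ± 0.0476 in BY4741, so the treated precursor rates stood above all untreated ones, while the treated and untreated mature rates overlapped. A1782 was at 3.47%, 4.86% and 6.29% in pre-40S and 6.51%, 7.36% and 7.84% in BY4741 (log2 change -2.12, adjusted p = 2.20e-08). Without DMS it read 2.00% ± 1.04 in pre-40S and 5.76% ± 0.445 in BY4741. In both particle types every treated rate of A1782 stood above every untreated one. The mature rate was thus already high without DMS, and the direction of the call at A1782 is not a lower DMS response in pre-40S. Of the other 12 modified A and C, 8 were tested (A100, A420, A436, A541, A796, A974, C1007 and C1639). The number called was 0 by edgeR, DESeq2 and limma, with 2 at an unadjusted p under 0.05 in edgeR and log2 changes from -1.11 at A420 to 1.01 at A796. A619, C414, C1280 and C1773 did not enter the test.

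The balance of higher and lower calls differed with how reactive a base was, and its direction depended on the particle used for sorting. To keep the grouping apart from the values tested, sites were sorted by their mean rate in libraries of the other pair of groups, first the treated mature libraries of the deletion strain. Of the 35 sites at 5% or more there, 33 were lower in pre-40S and 0 higher (0 by DESeq2, by limma and at an unadjusted p under 0.05 in edgeR as well), and 20 of the 35 were below every BY4741 library without scaling. From 1% to 5%, 77 of 185 were lower and 27 higher. From 0.5% to 1% it was 10 and 64 of 166, from 0.2% to 0.5% 1 and 55 of 178, and under 0.2% 1 and 20 of 178. A fall from a low mature rate leaves few precursor mutations to count, so falls were hard to detect in the last 2 classes. The 2 sites of the 35 that did not pass the test were A1721 (log2 change -0.20, adjusted p = 0.493) and A1483 (0.32, adjusted p = 0.190), both above every BY4741 library before scaling. Among those called lower, A67 was at 15.3% ± 4.74 in pre-40S and 13.0% ± 2.23 in BY4741, and A1712 at 19.6% ± 5.22 and 20.9% ± 2.31, with unscaled groups that overlap; both were chosen after their values were seen. Sorted instead by their rate in treated mL pre-40S, the 59 sites at 5% or more had 29 higher and 15 lower, and the 272 under 1% had 11 higher and 28 lower. Lower calls thus outnumbered higher ones among sites reactive in mature ribosomes and among sites weak in pre-40S, and a dependence on mature reactivity alone was not shown. The rank correlation of unscaled mean rates between the particles was 0.685 over the 742 tested sites, which share libraries and sequence context, while replicates correlated at 0.753 to 0.797 within pre-40S and 0.956 to 0.979 within BY4741.

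**Figure D4:**
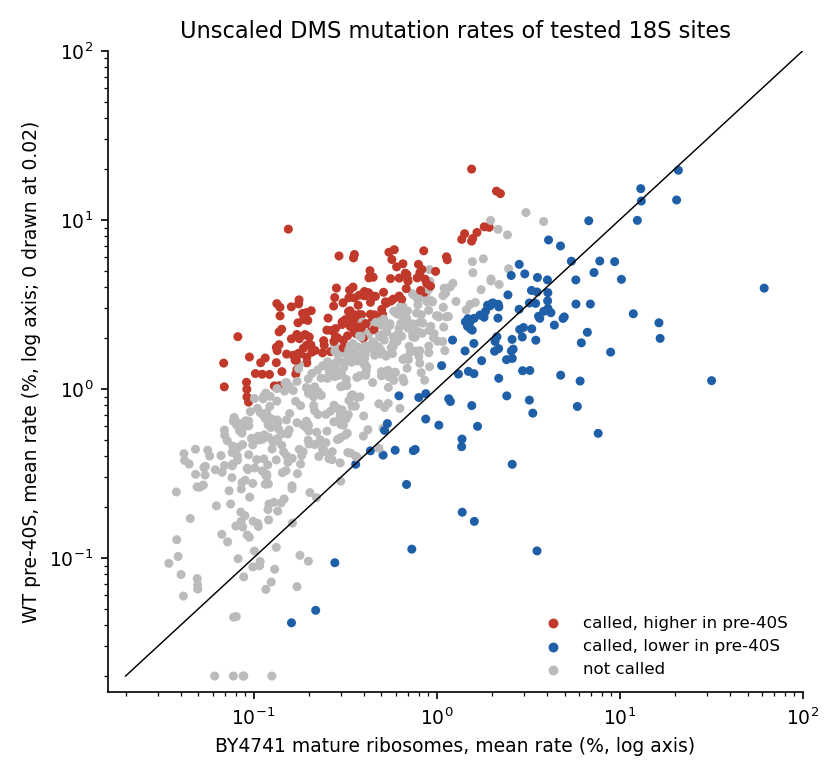
Mean unscaled DMS mutation rate in percent of 3 WT pre-40S libraries against that of 3 BY4741 libraries at 742 tested 18S sites, both axes logarithmic, with means of 0 drawn at 0.02. The line marks equal rates; sites called higher (red, 166) all lie above it, and 105 of the 122 sites called lower (blue) lie at mature rates over 1%.

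The second pair of groups, mL pre-40S against mature ribosomes of the deletion strain, shares no library with the first but comes from the same 2 experiments. Its pre-40S group is labelled with H375A too. There 32.3% of 2108 sites of RDN37 were called (11% higher and 21.3% lower), and in 18S 158 sites were higher and 136 lower of 731. Of the 166 sites higher in WT pre-40S, 165 were tested in this pair, 160 had the same sign and 112 were called higher. Of the 122 lower sites 121 were tested, all 121 had the same sign and 106 were called lower. By edgeR 0 of these 286 were called in the opposite direction, and 0 at an unadjusted p under 0.05. C139 had a log2 change of -6.18 and A1139 of -5.36 in this pair, against -6.20 and -5.47. Nearby, C1128 was at 3.79 against 2.55, whereas C1121 was at 0.22 (adjusted p = 0.852) against 2.06. A test of the difference between the pairs over the 12 treated libraries (edgeR) called 0 of 696 sites of 18S, with 58 at an unadjusted p under 0.05 and a smallest adjusted p of 0.411.

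**Figure D5:**
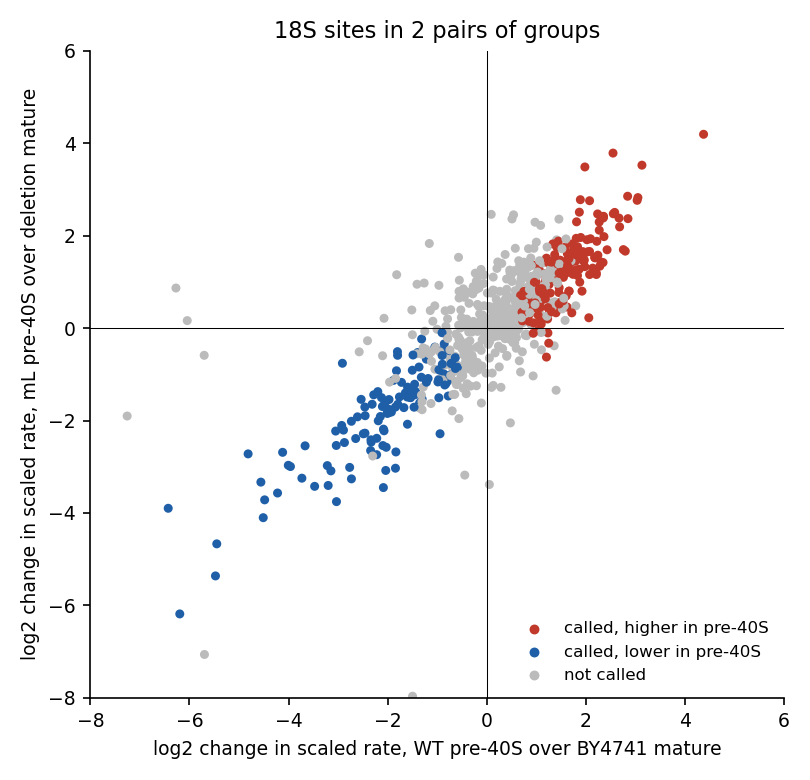
Log2 change in scaled rate of mL pre-40S over deletion-strain mature ribosomes against that of WT pre-40S over BY4741 mature ribosomes, 3 libraries in each group, at the 18S sites tested in both. Points are coloured by the call in the WT and BY4741 pair; none of the coloured sites was called in the opposite direction in the other pair.

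Testing required a DMS response in at least 1 particle type. Of the 742 tested sites 583 responded in both types, 104 in pre-40S only and 55 in BY4741 only. With a response required in both, 147 of the higher and 102 of the lower calls were kept. Of the called sites, 160 of the 166 higher ones had a DMS response in pre-40S and 120 of the 122 lower ones in BY4741, counts that the filter largely sets. The exceptions were A126, C424, A605, A737, A1092 and A1631 among the higher sites and C342 and A1782 among the lower ones. Without replicate 2 of either untreated group, C424, A605 and A737 remained on the higher side and C342 and A1782 on the lower. Counting only calls that held under every factor, every left-out library and this response, 69 sites were higher and 32 lower. With the untreated libraries in the fit (particle by DMS interaction, 12 libraries), 6 of the 166 higher and 33 of the 122 lower calls held in the same direction, and 10 and 1 turned. Only the treated libraries had a factor there, and both untreated replicates 2 were included. The lowest median 18S depth of an untreated pre-40S library was 70 reads.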

How the data were processed

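DMS-MaPseq libraries (single-end reads of 100 bp, reverse transcription with TGIRT-III, per the labels' protocols) were deposited as 1 profile per library over the 6858 nucleotides of RDN37. For each nucleotide the authors deposited the mutation count and the effective depth as counts and their ratio as a fraction. The deposited fraction equalled the ratio of the counts within 5e-07. Bowtie2 is named in the submitters' processing notes, with no version. Neither a mutation counter nor a genome build was named in the sources used here. No source mentions molecular identifiers, so intervals cover counting error only.

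Mutation counts of A and C with an effective depth of at least 50 in the 6 libraries, at least 30 mutations over them and a DMS response were fitted in edgeR 4.0.16 (R 4.3.3, quasi-likelihood test) with an offset of log effective depth plus log library factor. Each library's factor was the median, taken across tested sites, of (mutations + 0.5) over (depth + 1), relative to the geometric mean of the 6 libraries. An SE is the log2 change over the square root of F. Benjamini-Hochberg adjustment ran over all 2145 tested sites of RDN37. The fit was tested on simulated counts; there the factor left unchanged sites slightly below 0, and falls at sites with few precursor mutations were often missed, after which the pass criterion was limited to sites with enough of them. The fit was kept and a recentred factor added. Alternatives were other factors, depth, mutation and response filters, DESeq2 1.42.0, limma 3.58.1, a replicate block, an interaction with the untreated libraries and each library left out. Same-numbered libraries of the groups had deviations correlated at 0.0861, -0.0473 and -0.0906, so numbers do not pair them.

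Members, domains, site lists and tests were chosen with earlier results of these data known, and domain and helix bounds came from general knowledge of yeast 18S. Sites named are the 15 called rises and 15 called falls with the largest log2 change (mean scaled rate of at least 0.01, groups not overlapping), the 3 runs with the most sites each way, A1755, A1756 and 14 modified bases. Others are said to be chosen after their values were seen, or complete a count. Chromosome coordinates are not printed.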

Additional observations from a re-analysis of the deposited data

How the results depend on the processing

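Counts are of 18S sites called by edgeR in WT pre-40S against BY4741, 166 higher and 122 lower. The library factor gave 101 higher from 18S sites, and 437 higher and 33 lower without a factor, where 3 of the lower sites turned to called higher. Called under all 5 factors, a count chosen after seeing the data, were 101 and 33. The largest move of the higher count came with the particle by DMS interaction over 12 libraries, whose untreated libraries had no factor; it called 10 higher and 67 lower; 6 and 33 of these were calls of the same direction, and 10 higher sites and 1 lower site turned. Its untreated WT pre-40S libraries are shallow, and the cause of the turns was not tested. Leaving out 1 library gave 116 to 167 higher and 102 to 124 lower. The mL pair was refitted only with the factor from 18S sites and with each library left out. There no count moved by more than 1.5 times. The fit without a factor and the interaction were not run for that pair. The replicate block gave 157 higher and 117 lower and moved no count by that much; no named site lost its call under it. The recentred factor (190 and 101), the response without replicate 2, and the pair difference were also chosen after seeing the data. Depth and response filters, DESeq2 and limma kept the counts within 1.5 times.

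Signs that turned, as log2 changes, were as follows. In the interaction they were A737 at -3.02, C305 at -0.39, A1138 at -2.38, A515 at 2.32, A811 at 0.25, A1755 at -3.92, A1756 at 3.73, A541 at -0.54, A796 at -0.32, A253 at -2.17, A254 at -1.48, A256 at -1.31, A401 at -0.86, A421 at 3.66, A661 at 4.69 and A807 at 3.68, of which A737, A1138 and A1755 passed the test. Without a factor they were A1756 at 0.16, A420 at 0.34, A436 at 1.34, A974 at 0.90, C1007 at 1.19, C1639 at 0.89, A416 at 0.44, A421 at 0.17, A661 at 0.021, A807 at 0.32 and A817 at 0.12. With the 18S factor they were A1755 at -0.24 and A541 at -0.18; A436 was at 0.030 with the 25S factor and 0.038 with the recentred one, and C1007 at 0.046 with limma. With 1 library left out A1755 ranged from -0.15 (without WT pre-40S replicate 1) to 0.32, A436 from -0.89 to 0.36 (without WT pre-40S replicate 2) and A541 from -0.17 (without the same replicate) to 0.40.

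The median 18S depth of 373 ± 97.8 reads in pre-40S limits the detection of falls at weakly reactive sites.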
